A study of Sus scrofa with 6 samples.

Results

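Hepcidin and the liver iron set are 10 genes by which the liver senses, carries, stores and releases iron: HAMP, HFE, HFE2, TFR2, TMPRSS6, TF, TFRC, FTH1, FTL and SLC40A1. A member was taken from the deposited expression table by its gene symbol, and a symbol on several loci was read from the locus with the highest mean over all libraries. Of the 10 genes, 8 were found in this way among 121055 assembled loci. FTH1 was found by the description that the table gives its locus, and SLC40A1 by its Ensembl identifier. The set was chosen by the FPKM of HAMP in these same libraries, whose difference between the groups was already known, so the values of HAMP are given as a description without a test.

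Liver RNA came from 3 pigs with intrauterine growth restriction (IUGR) and 3 pigs of normal birth weight (Normal), with 1 library per pig. All were male pigs of the PIC breed that lived in one environment and were fasted before slaughter at 150 days of age, so no group is a genetic or drug model. The study took an IUGR and a normal littermate from each of several sows and then drew 3 animals per group for sequencing, and the labels do not say which of the 6 shared a litter. Libraries were made from polyadenylated RNA of whole liver, in which fewer cells of a type and less RNA per cell cannot be told apart.

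Hepcidin, the product of HAMP, is a peptide hormone made by hepatocytes. It binds ferroportin, the iron exporter encoded by SLC40A1, on gut cells and macrophages and has it degraded, so that less iron enters the plasma. Hepatocytes set HAMP transcription through 2 main inputs. Bone morphogenetic proteins, chiefly BMP6 and BMP2 from liver endothelial cells, act through SMAD proteins with hemojuvelin (HFE2) as co-receptor, and interleukin 6 acts through STAT3 in inflammation.

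The only sequences of a member at hand were the study's own quantitative PCR primers for pig HAMP. They are shown because HAMP is the member that differed, and they name the transcript that the study measured by a second method, whose values were not used here.
HAMP forward primer: tctcccatcccagacaagacag
HAMP reverse primer: gacagcagccgcagcagaag
The forward primer has 22 bases and the reverse primer 20 bases, and both are written 5′ to 3′. HAMP itself lies on chromosome 6, from 40205769 to 40207305 in Sscrofa10.2, under the identifier ENSSSCG00000002886.

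Values are FPKM, the fragments of a transcript scaled to its length and to the size of the library. Groups were compared with limma on log2(FPKM + 1) over the 14727 known loci (loci with an Ensembl identifier) whose mean FPKM was at least 0.3. Log2 fold changes are IUGR minus Normal throughout, and p-values were adjusted by the Benjamini-Hochberg method over all of these loci. Over the whole table only 3 loci passed an adjusted p of 0.05, which is 0.0204% of those tested (0.00679% higher and 0.0136% lower in IUGR). Between groups, 79.2% of loci had a log2 fold change above 0, with a median of 0.15, and the median was 0.02 once every library was given the same median. Ordered by median, the upper 3 and the lower 3 libraries were taken as sets, and these cross the groups. The cut fell between IUGR 3 and IUGR 1, whose medians were close, so the sets divide a range and are not separate clusters. The median log2(FPKM + 1) of tested loci was 2.77, 2.61 and 2.79 in IUGR 2, IUGR 3 and Normal 1, against 2.54, 2.40 and 2.27 in IUGR 1, Normal 2 and Normal 3. IUGR 2 and IUGR 3 were also the closest pair of libraries, with a robust SD of their log2 ratio of 0.10, against 0.26 to 0.33 for the other 14 pairs. Nothing in the sources says why, and a fit with both averaged into 1 sample is among the alternatives.

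HAMP was lower in every IUGR liver than in any Normal liver. Its FPKM was 2.40, 19.2 and 17.0 in IUGR 1 to 3, against 226, 84.1 and 131 in Normal 1 to 3. The groups did not overlap, and the lowest Normal liver stood 4.39 times above the highest IUGR liver. Groups averaged 12.9 ± 9.13 FPKM in IUGR and 147 ± 72.2 FPKM in Normal (SD, n = 3 each), so that the Normal mean was 11.4 times the IUGR mean. The log2 fold change was -3.67 with an SE of 0.58, and 3 of the 14727 tested loci had a lower one. The tested loci include 33 with a failed estimate in some library, among them TF, which is listed at 0 in 3. The place of HAMP in this order is therefore rough. Lower IUGR values without overlap were found for 1.22% of tested loci, a share from which nothing is read here because HAMP was chosen for its difference. IUGR livers also differed widely among themselves, with IUGR 2 at 7.98 times IUGR 1, while the highest Normal liver was 2.68 times the lowest. Without IUGR 1 the log2 fold change was -2.84.

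**Figure D1:**
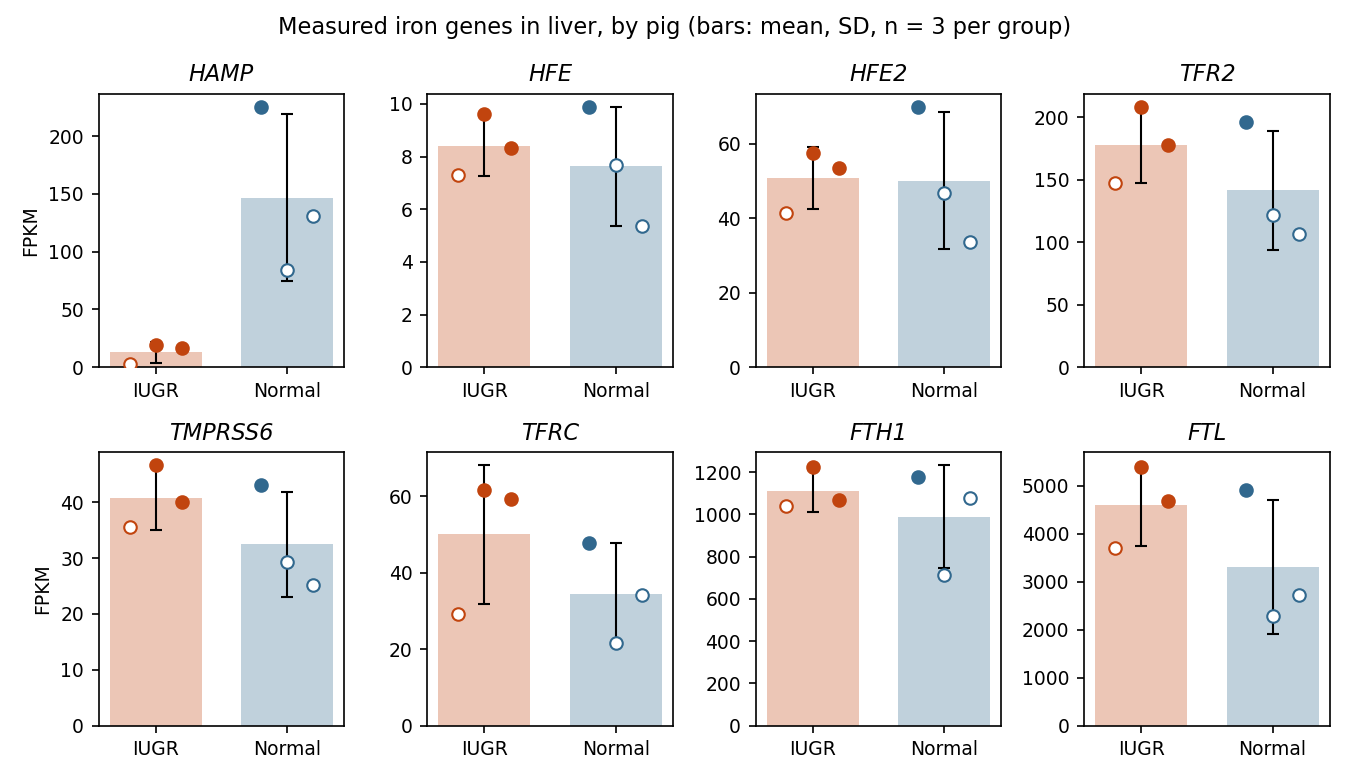
FPKM of the 8 measured genes of the iron set in IUGR (left) and Normal (right) livers, with a point per pig, bars for group means and SD as error bars (n = 3). Filled points are the libraries with the higher median (IUGR 2, IUGR 3 and Normal 1) and open points the others. HAMP is separated by group, at 2.40 to 19.2 FPKM in IUGR against 84.1 to 226 FPKM in Normal, while the groups overlap in the other 7.

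The difference in HAMP did not follow the split of the libraries by median. Among the libraries with the higher median, HAMP was 19.2 and 17.0 FPKM in IUGR 2 and IUGR 3, against 226 FPKM in Normal 1. Among those with the lower median it was 2.40 FPKM in IUGR 1, against 84.1 and 131 FPKM in Normal 2 and Normal 3. The log2 fold change was -3.57 within the first set and -4.96 within the second, each with a single pig on one side and no test. With every library scaled to the same median, HAMP was 2.44, 16.2 and 16.4 in IUGR livers, against 186, 96.7 and 167 in Normal livers, and the gap between the groups widened to 5.91 times. Over the 21 alternative settings tried, the fold change lay between -4.96 and -2.84.

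**Figure D2:**
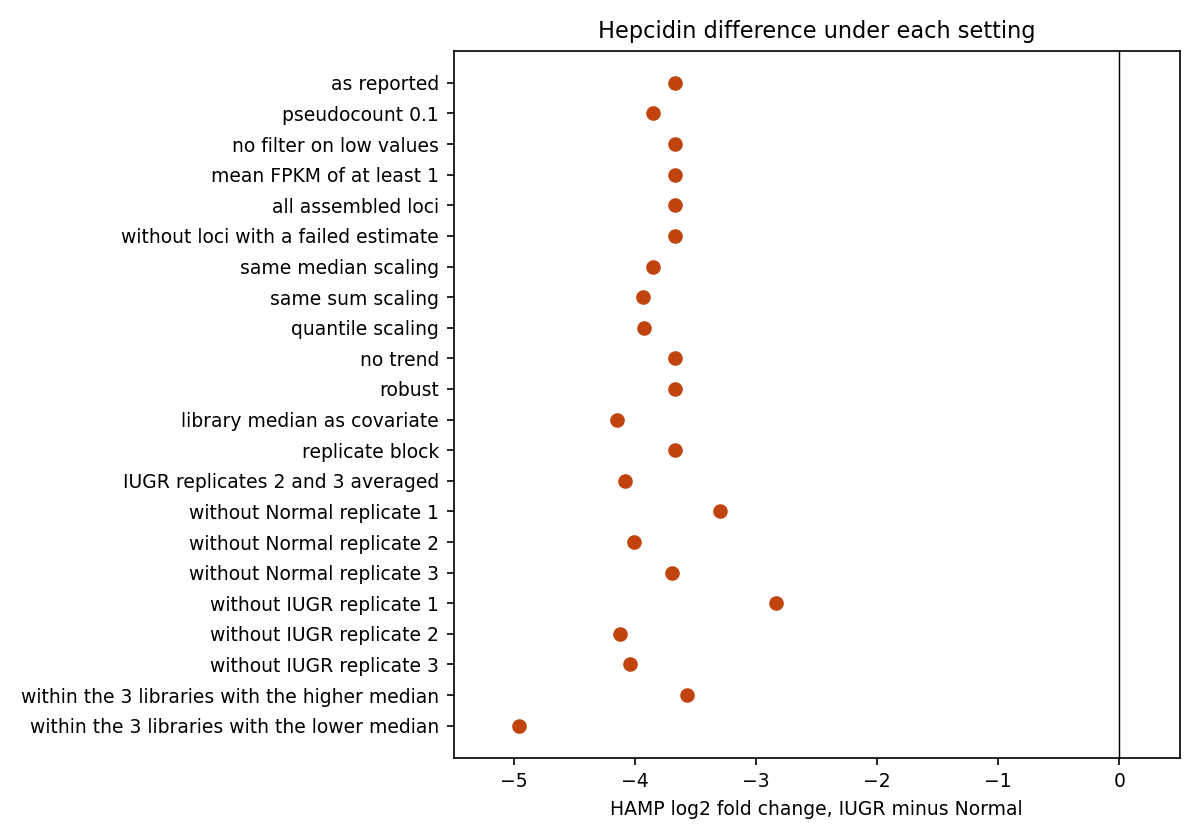
Log2 fold change of HAMP (IUGR minus Normal, x axis) as reported and under each alternative setting (y axis). Every point lies below 0, between -4.96 within the 3 libraries with the lower median and -2.84 without IUGR 1.

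The 7 other measured members did not show such a difference. None was called by limma, with a lowest adjusted p of 0.866, and none had an unadjusted p under 0.05. Over all tested loci 0.0204% were called, and 6% were higher and 0.794% lower at that unadjusted threshold. The called loci did not include HAMP either, so the lack of a call does not set these members apart from it. The groups of these members overlapped in 7 of 7, while among all tested loci 9.6% had groups that did not overlap, 8.39% with IUGR higher. All 7 had a log2 fold change above 0, from 0.07 to 0.54 with a median of 0.34. After scaling to the same median, 5 of 7 stayed above 0 and the median was 0.16. In 6 of 7, all 3 libraries with the higher median stood above all 3 with the lower one, as did 44.3% of tested loci. The split was drawn from the medians of the tested loci, these members among them. It therefore cannot be weighed against the groups, which were set beforehand.

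The genes that tell hepatocytes how much iron there is come first. TFR2 encodes transferrin receptor 2, which senses iron-loaded transferrin on hepatocytes, and lies on chromosome 3 from 7934045 to 7948981. It measured 147, 209 and 178 FPKM in IUGR livers, against 196, 122 and 106 FPKM in Normal livers. The IUGR values lay within or just above the Normal range, and the log2 fold change was 0.36 ± 0.34 (SE, limma adjusted p = 0.886). HFE encodes the MHC class I-like protein that is altered in classical human haemochromatosis, and sat on the unplaced scaffold GL893304.1 in this build. It measured 7.30, 9.62 and 8.31 FPKM in IUGR livers, against 9.88, 7.68 and 5.35 FPKM in Normal livers, so that all IUGR values fell inside the Normal range.

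HFE2 encodes hemojuvelin, the BMP co-receptor that HAMP expression requires, and lies on chromosome 4 from 108970679 to 108974965. Its FPKM was 41.4, 57.5 and 53.5 in IUGR livers, against 70.0, 46.8 and 33.6 in Normal livers. The group means were 50.8 ± 8.38 FPKM in IUGR and 50.1 ± 18.4 FPKM in Normal (SD, n = 3 each). TMPRSS6 encodes matriptase-2, the protease that restrains HAMP by cleaving hemojuvelin, and lies on chromosome 5 from 8263664 to 8304868. It measured 35.5, 46.7 and 40.0 FPKM in IUGR livers, against 43.0, 29.3 and 25.1 FPKM in Normal livers. The log2 fold changes were 0.07 ± 0.32 for HFE2 and 0.34 ± 0.29 for TMPRSS6 (SE, limma adjusted p = 0.966 and 0.882). For HFE and HFE2 the sign turned with the scaling, to -0.01 and -0.12 when all libraries had the same median.

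Iron delivery is represented by transferrin, its ubiquitous receptor and ferroportin. TFRC encodes transferrin receptor 1, through which cells take up transferrin iron, and lies on chromosome 13 from 143408460 to 143437991. Its FPKM was 29.1, 61.6 and 59.3 in IUGR livers, against 47.9, 21.5 and 34.2 in Normal livers. IUGR 2 and IUGR 3 stood above all Normal livers and IUGR 1 did not, with a log2 fold change of 0.52 ± 0.37 (SE, limma adjusted p = 0.866). TF, which encodes the plasma iron carrier, had an estimate in only 3 libraries: 7906 FPKM in IUGR 1, against 4780 and 6643 FPKM in Normal 2 and Normal 3. In IUGR 2, IUGR 3 and Normal 1 the locus was marked as holding too much data and was listed at 0, so no comparison was made. The locus that carries the identifier of SLC40A1 was nearly empty, at 0, 0 and 0.01 FPKM in IUGR livers, against 0.01, 0.01 and 0.03 FPKM in Normal livers. It lay under the filter, and the transcript of the hepcidin target could not be followed here.

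Ferritin, the iron storage shell of heavy and light chains, gave the most abundant transcripts of the set with a value in all libraries. FTL (light chain), on chromosome 6 from 50078376 to 50099372, measured 3708, 5382 and 4682 FPKM in IUGR livers, against 4901, 2292 and 2713 FPKM in Normal livers. The log2 fold change was 0.54 ± 0.46 (SE, limma adjusted p = 0.884), and the span listed for this locus is also that of GYS1. FTH1 (heavy chain), on chromosome 2 from 8983204 to 8986090, measured 1038, 1225 and 1070 FPKM in IUGR livers, against 1175, 711 and 1079 FPKM in Normal livers. Its log2 fold change was 0.20 ± 0.38 (SE, limma adjusted p = 0.921) and 0.01 after scaling to the same median. FTL exceeded FTH1 by 3.57, 4.39 and 4.38 times in IUGR livers, and by 4.17, 3.22 and 2.52 times in Normal livers. The 10 other loci described as ferritin reached at most 0.293 FPKM, and reads of near-identical ferritin copies may be split among loci.

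Since FPKM is per length, levels can also be ranked between genes. In all 6 libraries FTL stood above FTH1, FTH1 above TFR2, and TMPRSS6 above HFE. HAMP changed its place: among the 8 measured members it ranked 8, 7 and 7 in IUGR 1 to 3, against 3, 4 and 3 in Normal 1 to 3. HFE2, TFRC and TMPRSS6 were neighbours whose levels overlapped in both groups, with HFE2 above TFRC in 3 of 6 libraries and TFRC above TMPRSS6 in 4 of 6.

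A ratio within a library does not depend on how that library was scaled. The ratio of HAMP to TFR2 was 0.0163, 0.0919 and 0.0958 in IUGR livers, against 1.15, 0.689 and 1.23 in Normal livers. The lowest Normal ratio was 7.19 times the highest IUGR ratio. The ratio of HAMP to HFE2 was 0.0580, 0.334 and 0.318 in IUGR livers, against 3.22, 1.80 and 3.89 in Normal livers. The same gap ranged from 5.35 times for HFE to 12.3 times for TFRC over the 7 members. All 7 ratios share HAMP, which was chosen for its difference, so they are not separate results. Against FTL, HAMP stood at 0.000648, 0.00356 and 0.00364 in IUGR livers and at 0.0461, 0.0367 and 0.0481 in Normal livers.

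**Figure D3:**
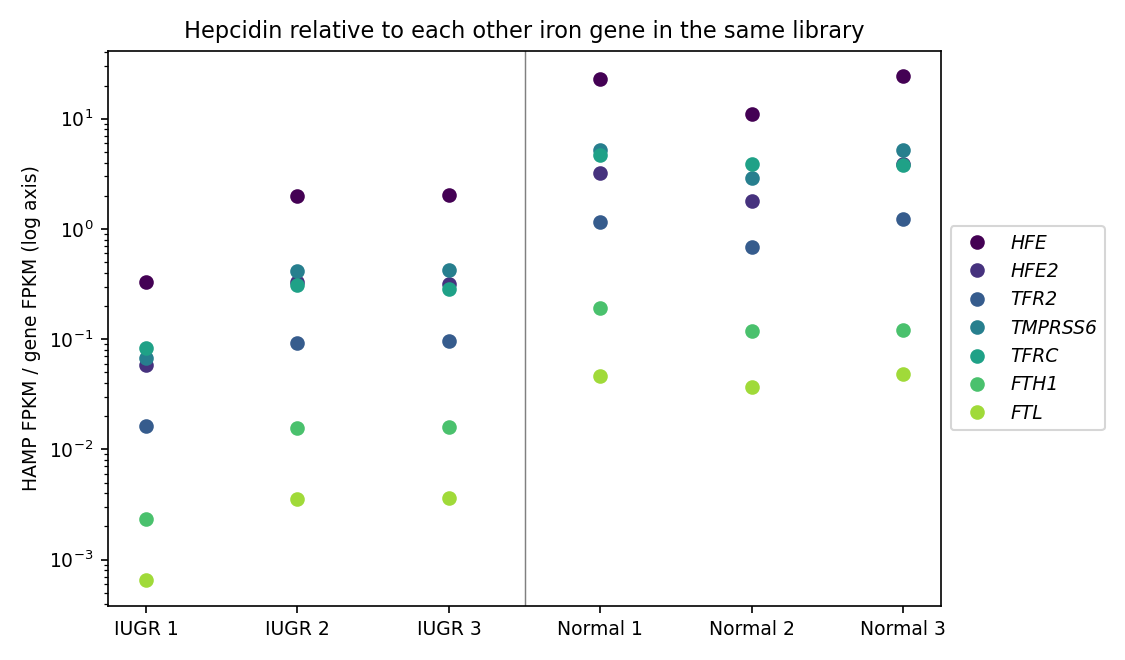
Ratio of HAMP FPKM to the FPKM of each other measured iron gene (log y axis, a colour per gene) in each library (x axis, IUGR left of Normal). For all 7 genes the 3 IUGR ratios lie below the 3 Normal ratios, by at least 5.35 times between the nearest libraries. The 7 ratios share HAMP, chosen for its difference, and are not separate results.

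None of the measured BMP and SMAD genes upstream of HAMP was called. Only 0.0204% of all tested loci were, so a list of this size would most likely hold none. Here and in the lists below, the lack of a call does not show that the genes were unchanged. Of 24 listed genes 20 were measured, 0 were called in limma and 0 had an unadjusted p under 0.05, against 6% of all loci higher and 0.794% lower in IUGR at that unadjusted threshold. Log2 fold changes were above 0 for 17 and below 0 for 3, with a median of 0.19 against 0.15 over all tested loci. BMP6, the ligand that reports liver iron, measured 56.4, 55.2 and 50.6 FPKM in IUGR livers, against 60.7, 20.2 and 23.3 FPKM in Normal livers. Its log2 fold change was 0.80 (limma unadjusted p = 0.0519, adjusted p = 0.744), the highest of the list. IUGR values lay above Normal 2 and Normal 3, and inside the Normal range only because of Normal 1. BMP2, a second ligand of liver endothelium, was near the filter at 0.264 to 0.621 FPKM in IUGR livers and 0.200 to 0.992 FPKM in Normal livers.

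Transcripts of SMAD target genes were read next, while SMAD activity itself was not measured. The groups overlapped in ID1, SMAD7, SMAD6 and ATOH8. Whether BMP input bears on HAMP was not tested. ID1, a transcription inhibitor that responds to BMP, measured 11.6, 18.7 and 14.4 FPKM in IUGR livers, against 25.0, 11.97 and 19.2 FPKM in Normal livers (log2 fold change -0.28, limma adjusted p = 0.895). SMAD7, an inhibitory SMAD that dampens the pathway, measured 6.17, 6.45 and 6.04 FPKM in IUGR livers, against 6.10, 4.05 and 4.05 FPKM in Normal livers (0.35, limma adjusted p = 0.858). SMAD6, the other inhibitory SMAD, had a log2 fold change of 0.26, and ATOH8, a BMP-responsive transcription factor, one of 0.19. Here and for the genes that follow, a lone number in parentheses after a gene is its log2 fold change. The most abundant genes of the list were FURIN, a protease that processes hemojuvelin and hepcidin precursors (0.18), BMP6, the type II receptor BMPR2 (0.16) and ID2 (-0.02). The ratio of HAMP to ID1 was 0.207, 1.03 and 1.18 in IUGR livers, against 9.03, 7.02 and 6.80 in Normal livers. ACVR2B, an activin receptor, was the only listed gene whose groups did not overlap, at 0.951 to 1.196 FPKM in IUGR livers against 0.657 to 0.889 FPKM in Normal livers. This is 1 of 20 genes, against 8.39% of all tested loci with IUGR higher and no overlap, and its unadjusted p was 0.121.

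**Figure D4:**
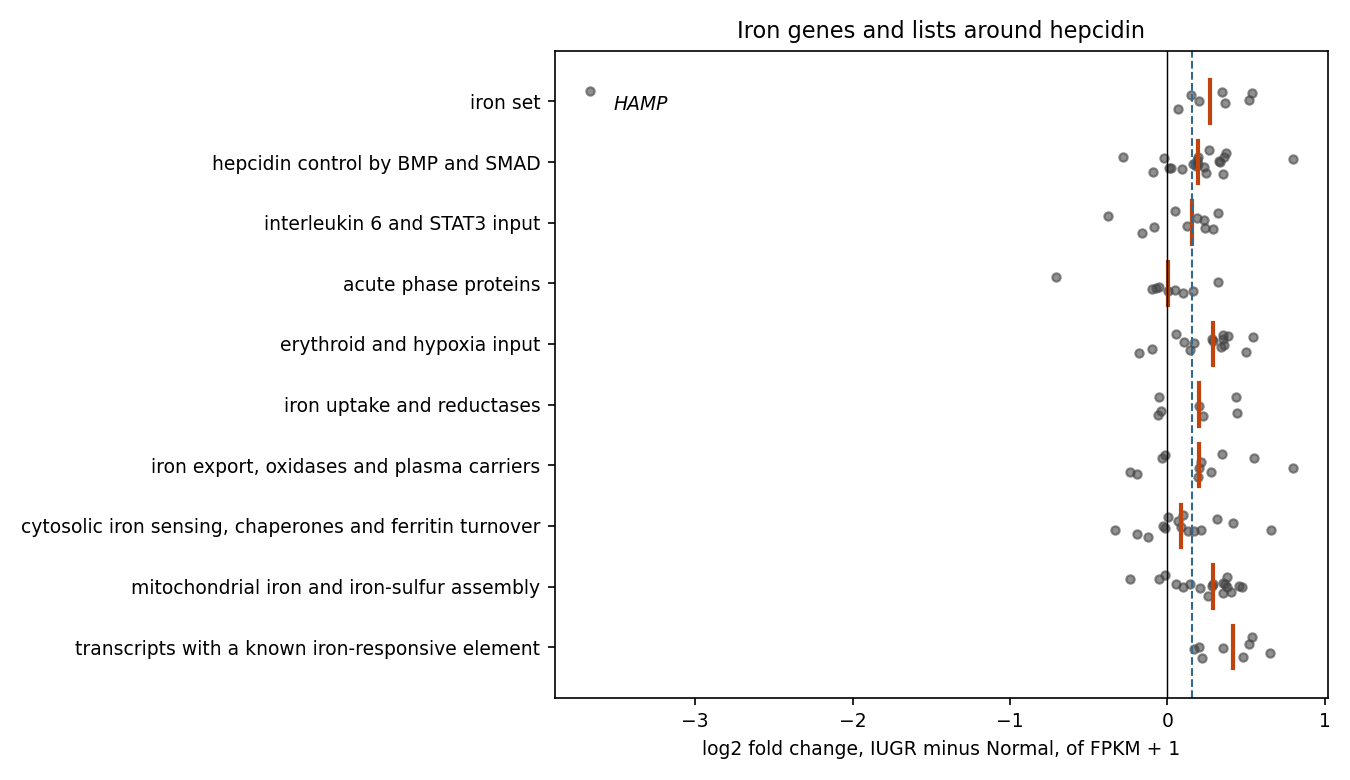
Log2 fold change (IUGR minus Normal, x axis) of each measured gene in the iron set and in 9 lists around it (rows). The short lines are the list medians, and the dashed line is the median of all tested loci, 0.15. HAMP at -3.67 lies apart from the other genes shown.

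For the inflammatory input, transcripts of the interleukin 6 and STAT3 genes and of acute phase proteins were read. Whether that input bears on HAMP was not tested. Of 15 listed interleukin 6 and STAT3 genes 10 were measured, 7 above 0 and 3 below 0, with a median of 0.16. In limma 0 were called, against 0.0204% of all tested loci. At an unadjusted p under 0.05 there were 0, against 6% higher and 0.794% lower in IUGR. STAT3, the transcription factor itself, measured 46.4, 74.0 and 61.9 FPKM in IUGR livers, against 84.4, 56.7 and 53.2 FPKM in Normal livers. SOCS3, the feedback inhibitor that STAT3 induces, measured 2.80, 4.85 and 4.84 FPKM in IUGR livers, against 13.0, 3.01 and 2.25 FPKM in Normal livers. Only Normal 1 stood apart in SOCS3. The most abundant members were IL1R1 (0.19), CREB3L3, a liver transcription factor that activates HAMP in mice (0.13), STAT3 (-0.09) and JAK1 (0.24).

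Of 16 acute phase genes 9 were measured, with 0 called and 0 at an unadjusted p under 0.05 in limma. The shares of all tested loci were 0.0204% called, and 6% higher and 0.794% lower at that unadjusted threshold. Log2 fold changes were above 0 for 5 and below 0 for 4, and the median was 0.00. HP, the haemoglobin carrier haptoglobin, was the most abundant, at 5709, 7542 and 6457 FPKM in IUGR livers, against 11650, 4601 and 5169 FPKM in Normal livers. C3 (0.05), FGG (0.16) and FGB (-0.07) were next in abundance. A few acute phase genes, chosen after their values were seen, varied between pigs within a group. SAA1, serum amyloid A, measured 646, 15.7 and 15.6 FPKM in IUGR livers, against 243, 64.3 and 47.9 FPKM in Normal livers. ITIH4 measured 2034, 648.5 and 536 FPKM in IUGR livers, against 946, 683 and 558 FPKM in Normal livers. CRP, C-reactive protein, showed another order, with 353, 597 and 517 FPKM in IUGR livers, against 1186, 208.5 and 542 FPKM in Normal livers. IUGR 1, the liver with the lowest HAMP, had the highest SAA1 and ITIH4. Normal 1, the liver with the highest HAMP, had the next highest of both, at 243 and 946 FPKM. The part of these genes in the HAMP level was not tested.

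Red cell production and low oxygen lower hepcidin in other settings. Of 19 genes listed for the erythroid and hypoxia input 15 were measured, 13 above 0 and 2 below 0, with a median of 0.29. In limma 0 were called, against 0.0204% of all tested loci. FAM132B, which encodes erythroferrone, the erythroblast hormone that represses HAMP, was listed at 0 in 5 libraries and at 0.04 FPKM in Normal 3. CA9, a hypoxia-induced carbonic anhydrase, was the only one with an unadjusted p under 0.05, at 1.65, 2.09 and 1.49 FPKM in IUGR livers, against 1.25, 1.05 and 1.08 FPKM in Normal livers. Its groups did not overlap, and its log2 fold change was 0.36 (limma adjusted p = 0.725). At that unadjusted threshold 6% of all tested loci were higher in IUGR. ARNT also had groups without overlap, which makes 2 of 15 genes, against 8.39% of all tested loci with IUGR higher. The most abundant genes were BNIP3 (0.34), VEGFA (0.28), TWSG1, a BMP-binding protein (0.50), and ARNT (0.35), whose locus also holds CTSK.

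Iron entry and export held no called gene either, where 0.0204% of all tested loci were called. At an unadjusted p under 0.05 the shares of all tested loci were 6% higher and 0.794% lower in IUGR. Of 16 uptake and reductase genes 7 were measured, with a median of 0.20 and 0 called or at an unadjusted p under 0.05 in limma. SLC39A14, the zinc and iron importer of hepatocytes, measured 64.0, 82.4 and 73.3 FPKM in IUGR livers, against 83.0, 72.5 and 70.2 FPKM in Normal livers. SLC39A8 (0.20), STEAP3 (-0.06) and CYBRD1 (0.44) followed it in abundance. Of 14 export and carrier genes 11 were measured, with a median of 0.20 and 0 called in limma. That median was 0.55 without Normal 1 and 0.01 without Normal 2. CP, the ferroxidase ceruloplasmin, measured 1845, 2388 and 2157 FPKM in IUGR livers, against 3711, 1294 and 1296 FPKM in Normal livers. HPX, the haem carrier hemopexin, measured 1806, 2533 and 2321 FPKM in IUGR livers, against 3127, 1480 and 1532 FPKM in Normal livers. AMBP (0.27) and HMOX2, the constitutive haem oxygenase (0.55), were the other abundant genes of the list. CP and HPX were highest in Normal 1 and lowest in Normal 2, so the IUGR values lay between. LTF, lactoferrin of neutrophil granules, was the only gene of these lists at an unadjusted p under 0.05, at 1.60, 0.876 and 0.625 FPKM in IUGR livers, against 0.199, 0.174 and 0.0777 FPKM in Normal livers. Its log2 fold change was 0.80 with a limma adjusted p of 0.223. The Normal mean of 0.150 FPKM was under the filter of 0.3, so LTF was tested only because of its IUGR values.

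Cells also sense iron in the cytosol, where iron regulatory proteins bind RNA and NCOA4 brings ferritin to the lysosome. Of 17 such genes 15 were measured, 10 above 0 and 5 below 0, with a median of 0.08. In limma 0 were called or at an unadjusted p under 0.05. Over all tested loci 0.0204% were called, and 6% were higher and 0.794% lower at that unadjusted threshold. ACO1, iron regulatory protein 1, measured 30.6, 23.1 and 21.4 FPKM in IUGR livers, against 27.4, 18.5 and 29.4 FPKM in Normal livers. IREB2, iron regulatory protein 2, measured 11.6, 13.9 and 12.5 FPKM in IUGR livers, against 16.8, 9.25 and 11.2 FPKM in Normal livers. NCOA4 had a log2 fold change of 0.31, and FBXL5, which has IREB2 degraded when iron is plentiful, one of -0.03. PCBP2, an iron chaperone, was at -0.12 and NFE2L2, a transcription factor of the oxidative stress response, at 0.42. Of 22 mitochondrial iron and iron-sulfur genes 18 were measured, 15 above 0 and 3 below 0, with a median of 0.29 and 0 called or at an unadjusted p under 0.05 in limma. The most abundant were HSPA9, a mitochondrial chaperone (-0.24), GLRX5 (0.35), BOLA3 (0.14) and ISCA1 (0.05), factors of iron-sulfur assembly. In 17 of these 18 the libraries with the higher median all stood above the others, as they did in 44.3% of all tested loci. The split was itself drawn from the medians of the tested loci, so nothing is read from this count.

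Transcripts with an iron-responsive element bind those proteins, and 8 of 10 listed were measured. All 8 had a log2 fold change above 0, with a median of 0.42 and 0.24 after scaling to the same median, and 0 were called in limma. Among them are the members TFRC, FTH1 and FTL given above. Over all tested loci 0.0204% were called, and 6% had an unadjusted p under 0.05 with IUGR higher. CDC14A, a phosphatase, was the only one of the 8 at that threshold. It measured 5.52, 9.99 and 10.4 FPKM in IUGR livers, against 4.73, 5.50 and 4.62 FPKM in Normal livers. The log2 fold change was 0.65, with a limma adjusted p of 0.622. IUGR 1 was close to the Normal livers and the other IUGR livers were not.

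Markers of liver cell types were read to see what moved beside HAMP. The tissue label fits the hepatocyte markers, of which 9 of 10 were measured, 5 above 0 and 4 below 0, with a median log2 fold change of 0.20 and 0.01 after scaling to the same median. ALB had a failed estimate in all libraries, and of the rest TTR (0.40) and APOA1 (0.42) were the most abundant. The lowest was CPS1, a urea cycle enzyme (-0.59), chosen after its values were seen. Markers listed as sinusoidal endothelial, which include general endothelial genes such as PECAM1 and VWF, had 8 of 9 above 0 and a median of 0.43. The median was 0.77 without Normal 1 and 0.17 without Normal 2. Of these 9, 2 had an unadjusted limma p under 0.05, PECAM1 and VWF, against 6% of all tested loci with IUGR higher. In 1, PECAM1, the groups did not overlap, against 8.39% of all tested loci with IUGR higher. The summed level of the 9 was 481, 533 and 429 FPKM in IUGR livers, against 479, 240.4 and 331 FPKM in Normal livers. Kupffer cell markers had 7 of 11 above 0 and a median of 0.12, and CD163 was near 0 in all libraries. C1QC (0.19) and CD5L (0.08) were the most abundant of them, as CLEC4G (0.60) and OIT3 (0.43) were of the endothelial markers.

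Neutrophil and stellate cell markers had the highest medians of the 8 cell type lists, and none of them was called in limma. Among all tested loci, 6% had an unadjusted p under 0.05 with IUGR higher and 8.39% had IUGR values all above Normal values. Of 8 neutrophil markers 5 were measured, 3 of them at an unadjusted p under 0.05 and without overlap, and the summed level was 20.4, 14 and 11.8 FPKM in IUGR livers, against 8.88, 7.32 and 3.45 FPKM in Normal livers. S100A8, a calcium-binding protein of neutrophils, had a log2 fold change of 1.22 (limma adjusted p = 0.122), with S100A12 at 1.07. Of 10 stellate markers 9 were measured and 6 had an unadjusted p under 0.05, 4 had groups that did not overlap, and the median was 0.81, or 0.46 without Normal 2. Their summed level was 137.5, 148 and 118 FPKM in IUGR livers, against 112, 56.5 and 68.0 FPKM in Normal livers, and COL1A2, a collagen chain, had a log2 fold change of 1.11 (limma adjusted p = 0.327). DCN, the proteoglycan decorin, was at 0.83. RGS5, a pericyte gene, was at -0.01. The part of these markers in the HAMP difference was not tested.

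Erythroid markers had 5 of 6 above 0, 0 at an unadjusted p under 0.05 in limma, and a median of 0.52. Over all tested loci 6% were higher and 0.794% lower at that threshold. The median of the erythroid markers was 0.12 without IUGR 1 and 0.13 without Normal 3. HBB, a haemoglobin chain, was at 1982, 1225 and 954 FPKM in IUGR livers, against 1480, 978 and 595 FPKM in Normal livers. HBA1, another chain, had a log2 fold change of 0.70 and ALAS2, the first haem enzyme of red cells, one of 0.48. The summed erythroid level was 3662 FPKM in IUGR 1, 2001 and 1561 FPKM in IUGR 2 and IUGR 3, against 2295, 1575 and 979 FPKM in Normal livers. IUGR 1 thus had the highest summed erythroid and neutrophil markers and the lowest HAMP of the 6 livers. Among Normal livers, however, Normal 1 had the highest of both sums, and it had the highest HAMP of the 6. Whether blood content bears on HAMP was not tested.

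**Figure D5:**
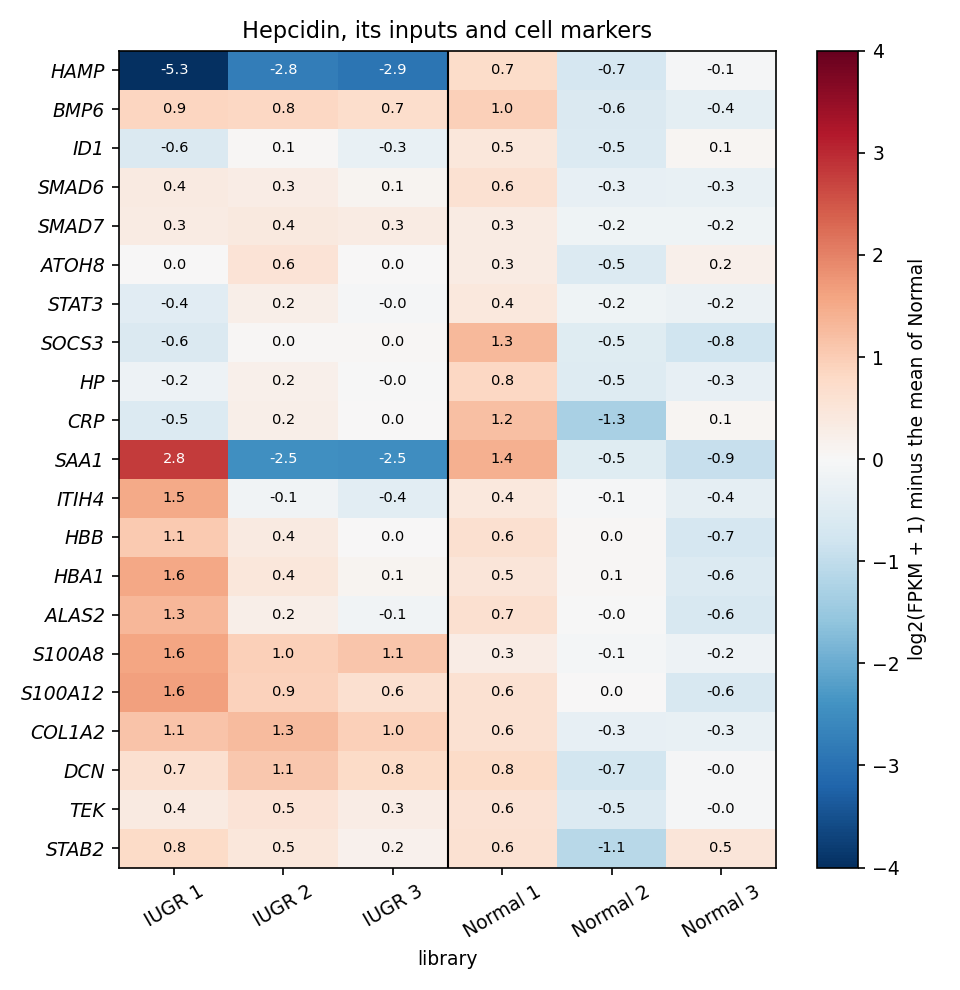
Heat map of log2(FPKM + 1) minus the mean of the Normal livers for HAMP, genes of its inputs and cell type markers (rows) in each library (columns, IUGR left of Normal), with colours limited to -4 and 4. HAMP is below the Normal mean in all 3 IUGR livers, and SAA1 is highest in IUGR 1 at 646 FPKM.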

How the data were processed

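The authors made polyadenylated RNA libraries of 6 livers and deposited 1 table of FPKM, with a status for each estimate. Per the labels, TopHat 2.0.14 (Bowtie 2.0.6), Cufflinks 2.2.1 and Cuffdiff 2.1.1 were used on build Sscrofa10.2. The paper names a different pig assembly for its alignment, and positions here follow the labels. Cuffdiff marked 59 loci as not OK in some library, 33 of them among those tested, and such members (TF) were not compared. The table holds no counts, so the depth behind a value is unknown. The authors tested counts with edgeR, which was not run here. Here log2(FPKM + 1) was modelled in R 4.3.3 by limma 3.58.1, using lmFit and a trended eBayes. This scale understates the change of low genes. The filter was a mean FPKM of at least 0.3, and calls needed an adjusted p under 0.05. An exact permutation test of 3 against 3 cannot give a p below 0.1. Each pig is a separate animal.

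The members, lists and tests were chosen with earlier results of these data known. The genes named are the members, the 4 most abundant of each pathway list and its genes with an unadjusted p under 0.05, a fixed group of regulators (BMP6, BMP2, ID1, SMAD6, SMAD7, ATOH8, FAM132B, CP, HPX, SLC39A14, ACO1, IREB2 and NCOA4), and the 2 most abundant of each cell type list. SOCS3, ACVR2B, ALAS2, CD163, PECAM1, VWF and RGS5 are outside this rule and were named after their values were seen. The 5 genes most like HAMP had the highest r among loci whose mean FPKM reached 5 and whose SD reached 1 on the log2 scale. Of the 9 pathway and 8 cell type lists only counts, medians and sums are given. Gene names came from the table, or by identifier from a table of pig gene names. The model was tested on simulated data. The alternatives changed the pseudocount (0.1), filter, loci, scaling, variance model, replicate block, threshold and libraries. Other software was matplotlib 3.10.9, numpy 2.4.6, pandas 2.3.3 and Python 3.11.15.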

Additional observations from a re-analysis of the deposited data

How the results depend on the processing

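HAMP was below 0 in 22 of 22 settings and moved most within the libraries with the lower median (-4.96), and leaving out a library gave -4.12 to -2.84. None of the other 7 members was called under any alternative run, with a lowest adjusted p of 0.130. HFE turned to -0.012, -0.090 and -0.021 with same median, same sum and quantile scaling, to -0.055 with the library median as covariate and to -0.13 within the higher-median libraries, and ranged from -0.053 to 0.34 with a library left out. HFE2 turned to -0.12, -0.20, -0.14, -0.21 and -0.33 under the same 5 settings and to -0.0011 with IUGR 2 and IUGR 3 averaged, and ranged from -0.18 to 0.34 with a library left out. FTH1 turned to -0.076 with same sum scaling, -0.13 with quantile scaling and -0.037 within the higher-median libraries, and ranged from -0.023 to 0.34 with a library left out. TFR2 was -0.026 within the higher-median libraries. The cause was not tested.

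Of 323 alternative values of the 17 list medians, 13 moved by more than the spread, in 6 lists. The export and carrier median was -0.07, -0.06 and -0.13 with same sum scaling, quantile scaling and the library median as covariate, and the hepatocyte median was -0.08, -0.14 and -0.12. The interleukin 6 and STAT3 median was -0.11 and -0.13 with the first 2 of these, the endothelial median was 0.17 with same sum scaling, and the neutrophil median was 1.49 with pseudocount 0.1. The other moved values leave out a library. Scaling to the same median turned the medians of 5 lists below 0: interleukin 6 and STAT3 (-0.03), acute phase (-0.19), cytosolic sensing (-0.08), Kupffer cell (-0.05) and lymphocyte (-0.06). With a library left out, the medians of acute phase (-0.20 to 0.36), iron uptake (-0.01 to 0.36), cytosolic sensing (-0.01 to 0.28), hepatocyte (-0.06 to 0.28) and Kupffer cell genes (-0.05 to 0.45) crossed 0.

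The number of loci called higher in IUGR, 1 as reported, was 3 with pseudocount 0.1, 5 with a filter of 1 FPKM, 2 over all assembled loci, 5 without failed loci, 30 with a robust variance model, 12 with IUGR 2 and IUGR 3 averaged, and 3 to 128 with a library left out. The number called lower, 2 as reported, was 1 with pseudocount 0.1, 6 with a filter of 1 FPKM, 5 over all assembled loci, 5 without failed loci, 6 with a robust model, 6 with IUGR 2 and IUGR 3 averaged, and 1 to 30 with a library left out. It was 0 with no filter, with same median, same sum or quantile scaling, without the trend, with the library median as covariate and at the study's thresholds, against 117 loci lower at an unadjusted p under 0.05 as reported. A replicate block gave 166 higher and 79 lower. Same-number deviations from the group means had r of -0.22, -0.07 and -0.17, so the numbers were not taken as pairs. These deviations carry the overall level of each library, so whether a number stands for a litter is not known.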

Other observations

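Among 56 known loci with a symbol, a mean FPKM of at least 5 and a wide spread over libraries, the levels most like those of HAMP over the 6 libraries were those of NNMT, nicotinamide N-methyltransferase (r = 0.89). NNMT measured 4.61, 9.14 and 8.49 FPKM in IUGR livers, against 100.6, 70.9 and 22.3 FPKM in Normal livers, and its groups did not overlap. The locus joining CYP2J34 and U6 (r = 0.74), GPT2, an alanine aminotransferase (0.71), ACAA (0.71) and MUC13A (0.56) followed. GPT2 measured 2.91, 2.30 and 2.31 FPKM in IUGR livers, against 28.6, 2.35 and 12.6 FPKM in Normal livers, so Normal 2 was among the IUGR values. These are descriptions over 6 libraries that share the group difference, chosen by it in part.

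USF2, the gene next to HAMP on chromosome 6, was chosen after its values were seen. It measured 19.2, 21.95 and 19.2 FPKM in IUGR livers, against 26.2, 13.7 and 14.1 FPKM in Normal livers, and the groups overlapped. Of 11 lymphocyte markers 10 were measured, with a median log2 fold change of 0.08, and the most abundant were PTPRC (0.17) and CD2 (0.09). Of 8 cholangiocyte markers 5 were measured with a median of 0.16, among them CLDN4 (0.09) and SPP1, osteopontin, at 12.1, 41.8 and 28.3 FPKM in IUGR livers, against 10.9, 8.50 and 14.8 FPKM in Normal livers.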
